A study of Mus musculus with 8 samples.

Results

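Imprinted genes, 41 in all, were followed between mouse striatal cell lines that differ in the huntingtin gene Htt, grouped by the imprinted cluster each belongs to and by the parental allele that is expressed. Members were all array probe sets that the platform's gene table assigns to a single gene of that list, under its current or an older symbol. They came to 106 of 45037 probe sets and to 40 of the 41 genes, out of 18193 genes named on the array. H19 had no probe set of its own, because its only probe set was shared with another gene. The 8 Affymetrix mouse expression arrays measured total RNA of 4 samples of the line SThdh7/7 and 4 of the line SThdh111/111. The lines are conditionally immortalised cells derived from the embryonic striatum of Htt knock-in mice, and their names give the polyglutamine length encoded by both Htt alleles, short in SThdh7/7 and expanded in SThdh111/111, where it models Huntington's disease. No agent, age or time point is given in the labels. Each genotype is a single line, so genotype and other differences between the lines cannot be told apart, and the labels do not say whether samples are separate cultures, so the spread behind each p-value may be technical.

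An imprinted gene is transcribed from the copy inherited from a single parent. The choice is set by DNA methylation laid down in the egg or sperm at a control region, which governs a whole cluster, often through a long noncoding RNA. Many paternally expressed members promote growth of the embryo and placenta and many maternally expressed members restrain it, and several are known for roles in neural progenitors and neurons. The arrays measured total transcript. They did not separate the parental alleles, so a rise from the active copy and transcription from the silent copy cannot be told apart, nor can more cells with a transcript and more transcript per cell.

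The promoters of 6 members on which the results turn are shown because imprints are carried by CpG dinucleotides, the sites of DNA methylation in mammals. Each is the window from 250 bases before to 50 bases after a RefSeq transcript start on assembly GRCm38.p6, printed along the gene's own strand with every CpG in capitals. Where a gene had several starts, the window with the most matches to TGCCGC was taken, and then the one with the most CpG. Whether any of these windows lies in the control region that carries the imprint of its cluster was not checked.
Mest (chr6:30737800-30738099, plus strand): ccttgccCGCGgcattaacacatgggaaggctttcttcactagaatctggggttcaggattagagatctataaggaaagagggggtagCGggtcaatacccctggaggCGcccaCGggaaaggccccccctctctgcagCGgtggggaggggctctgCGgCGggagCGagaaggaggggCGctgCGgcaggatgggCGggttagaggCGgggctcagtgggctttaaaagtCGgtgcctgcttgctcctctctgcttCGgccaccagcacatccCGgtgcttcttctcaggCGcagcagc
Plagl1 (chr10:13090582-13090881, plus strand): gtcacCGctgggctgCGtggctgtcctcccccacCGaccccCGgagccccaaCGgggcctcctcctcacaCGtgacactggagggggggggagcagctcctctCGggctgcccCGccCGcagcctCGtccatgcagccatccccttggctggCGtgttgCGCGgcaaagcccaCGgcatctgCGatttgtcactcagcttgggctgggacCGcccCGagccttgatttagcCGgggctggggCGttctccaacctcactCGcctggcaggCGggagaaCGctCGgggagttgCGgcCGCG
Dlk1 (chr12:109452573-109452872, plus strand): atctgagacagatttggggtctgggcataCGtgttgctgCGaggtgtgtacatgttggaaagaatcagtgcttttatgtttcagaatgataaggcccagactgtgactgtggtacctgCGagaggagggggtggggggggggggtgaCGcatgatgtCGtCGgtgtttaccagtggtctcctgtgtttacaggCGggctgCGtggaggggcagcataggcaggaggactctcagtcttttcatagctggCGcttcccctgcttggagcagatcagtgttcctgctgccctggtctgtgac
Meg3 (chr12:109540746-109541045, plus strand): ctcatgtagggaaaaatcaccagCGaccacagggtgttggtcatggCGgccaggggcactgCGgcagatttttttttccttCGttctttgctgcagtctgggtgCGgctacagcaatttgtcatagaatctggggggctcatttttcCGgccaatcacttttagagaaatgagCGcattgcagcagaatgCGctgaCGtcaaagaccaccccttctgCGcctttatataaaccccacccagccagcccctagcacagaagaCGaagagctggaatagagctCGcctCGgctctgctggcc
Peg3 (chr7:6730370-6730669, minus strand): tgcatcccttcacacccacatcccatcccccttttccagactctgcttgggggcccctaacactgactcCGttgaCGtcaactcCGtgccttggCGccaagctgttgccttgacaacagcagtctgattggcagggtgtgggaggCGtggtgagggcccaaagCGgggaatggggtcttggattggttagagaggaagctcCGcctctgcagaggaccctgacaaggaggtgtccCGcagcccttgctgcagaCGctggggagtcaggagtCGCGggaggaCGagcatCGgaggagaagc
Ndn (chr7:62348027-62348326, plus strand): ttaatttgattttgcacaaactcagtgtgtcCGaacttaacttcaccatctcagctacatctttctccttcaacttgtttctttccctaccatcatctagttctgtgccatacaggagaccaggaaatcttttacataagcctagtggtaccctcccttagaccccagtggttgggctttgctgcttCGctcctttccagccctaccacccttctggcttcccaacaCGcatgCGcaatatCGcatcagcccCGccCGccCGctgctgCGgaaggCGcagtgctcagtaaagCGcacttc

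These windows held 17 CpG for Mest, 26 for Plagl1, 9 for Dlk1, 13 for Meg3, 13 for Peg3 and 11 for Ndn. Over the 54 windows of the 36 imprinted genes in the promoter table the median was 15 CpG, against 7 over all 32851 windows. The letters TGCCGC, the motif bound by the imprint-protecting zinc finger protein ZFP57 when its CpG is methylated, were searched on both strands. They occurred in 24.1% of the imprinted windows and in 11.6% of all windows, with 2 matches in the window of Mest, 1 in that of Plagl1 and 1 in that of Meg3. The palindrome GGGGCCCC, a motif of PLAGL1 itself, occurred in 7.41% of imprinted windows and in 1.08% of all windows, and Peg3 and Usp29 were among the 4 imprinted genes that held it. Peg3 and Usp29 are transcribed in opposite directions, and their windows shared 263 bases. The palindrome lies in these shared bases, so the same site is counted in both windows. Some windows of Mest also overlap, so its TGCCGC matches are counted more than once in the share. Imprinted windows were also richer in G and C, with a median of 60% against 52.7% over all windows, and both motifs are made mostly of these bases. No share was counted for windows of matched base composition, so its part in the motif shares was not tested. Matches of TGCCGC on opposite strands can overlap each other, a match is no evidence of binding, and methylation was not measured.

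Differences are given as SThdh111/111 minus SThdh7/7 on the log2 scale, tested for every probe set with limma and adjusted by the Benjamini-Hochberg method over the 41409 probe sets that passed a filter on dim values, and a call is an adjusted p under 0.05. A gene is represented by its brightest probe set unless others are named. Of the 106 imprinted probe sets 95 passed the filter, and so did 39 of the 40 genes. The exception was Mkrn3, a makorin ubiquitin ligase gene, at 5.91, 3.54, 2.36 and 1.96 in SThdh7/7 and 0.58, 5.98, 2.16 and 5.16 in SThdh111/111. A background floor of 7.02 on the log2 scale, the level that 95% of bacterial control probe sets stay under on the array with the brightest of these backgrounds, marks levels too dim to rank. That array was SThdh7/7 sample 2. The same percentile lay at intensities of 98.7 to 130.0 on SThdh7/7 arrays and 72.0 to 77.5 on SThdh111/111 arrays. Background was thus brighter in SThdh7/7, and its part in the differences of dim genes was not tested. The same floor serves both lines. On all 4 arrays of a line, 16 of the 40 genes were above the floor in SThdh7/7 and 24 in SThdh111/111, and 10 genes lay below it on all 8 arrays.

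For the arrays as a whole, correlations over all probe sets were 0.906 to 0.927 within SThdh7/7, 0.922 to 0.924 within SThdh111/111 and 0.866 to 0.885 between the lines. SThdh7/7 samples 1 and 2 had median intensities of 173.9 and 174.0, against 136.2 to 147.0 on the other 6 arrays. Htt itself was at 9.26, 9.30, 8.96 and 8.99 in SThdh7/7 and at 8.90, 8.85, 8.81 and 8.26 in SThdh111/111, and the difference of -0.42 ± 0.16 (SE) was not called (adjusted p = 0.084). Of its other 3 probe sets, 1456667_at was lower by the same test, with a log2 difference of -1.09 ± 0.32 (SE; adjusted p = 0.024), and the other two were not called. The array was not designed to read the repeat length, so this does not check the labels.

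Expression of 13 of the 39 imprinted genes rose in SThdh111/111 and that of 5 fell, while 13.1% of 17380 genes rose and 15.9% fell, 29.0% in all, with 1 probe set taken for each. The list was chosen with earlier results of these data known, so this is not an independent comparison. The 13 were Plagl1, Mest, Dlk1, Cdkn1c, Peg3, Igf2, Rian, Airn, Meg3, Igf2r, Copg2, Grb10 and Cd81, and the 5 were Peg10, Inpp5f, Ndn, Impact and Tssc4. The lines did not overlap at any of these 18 genes, but they were picked by their calls. The share over all called genes was not counted, so this is not read as a trait of imprinted genes. Counted by probe set, 23 of 95 were higher, with 9.87% in the background, and 9 were lower, with 12.6% in the background and 22.4% called either way. The 23 include Plagl1 1450533_a_at and Meg3 1436713_s_at, which would have failed the filter on their SThdh7/7 values alone. The fitted rise was at least 4-fold for 6 imprinted genes, and 2.16% of all genes were called with a rise of that size. Among these 6 only Mest was above the floor on all SThdh7/7 arrays, and for Peg3 the bound set by the floor was 3.06-fold. None of the 39 was called with a fall of 4-fold or more, against 1.64% of all genes. The median difference was 0.21 over the 39 genes and -0.09 over all genes. With dim values raised to the floor the median over the 39 was 0.00, and it varied between arrays of a line with a pooled SD of 0.25.

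All 13 genes that rose were above the floor on all SThdh111/111 arrays, but 6 of them were below it on at least 1 SThdh7/7 array. Without SThdh7/7 samples 1 and 2, the 2 with the higher medians, 14 genes were higher and 4 lower, with Mirg gained and Peg10 lost. With arrays centred on their medians the counts were 12 and 2, with Cd81, Impact, Peg10 and Tssc4 lost. That centring moved the median over all kept probe sets from -0.12 to 0.04, so the small differences of these genes are read against it.

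**Figure D1:**
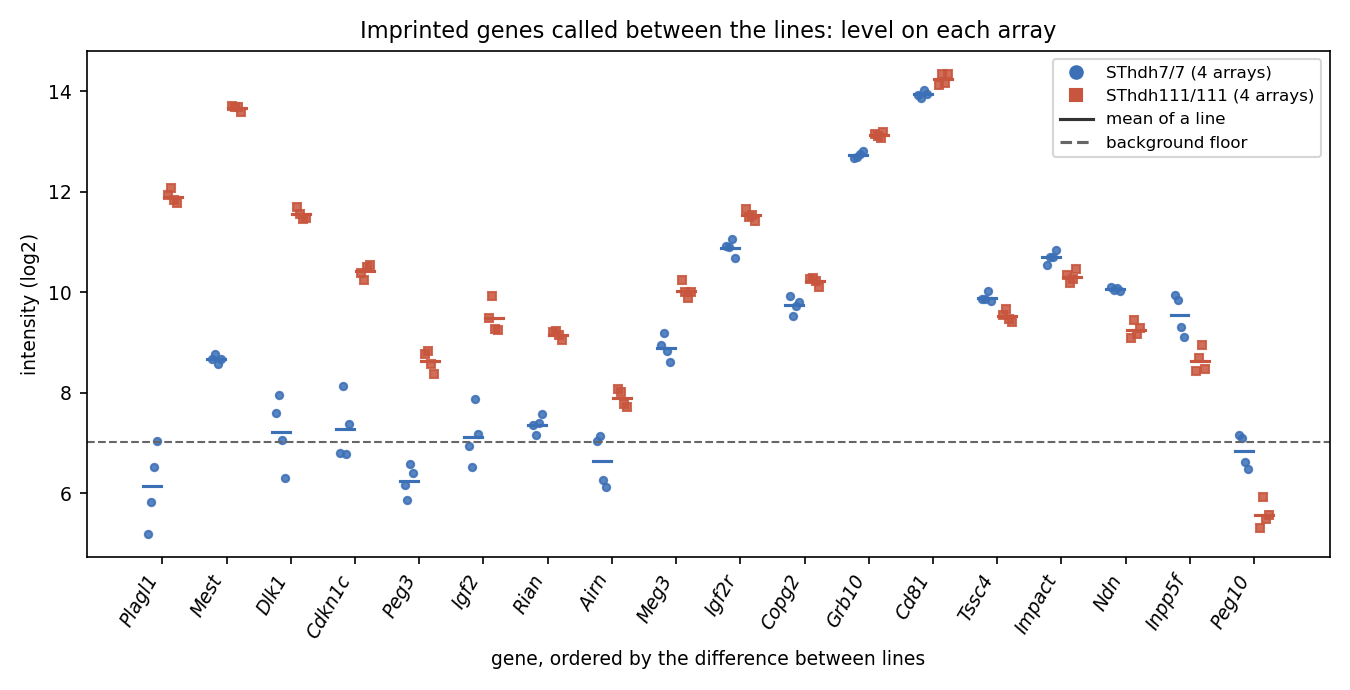
Level of each of the 18 called imprinted genes on every array (log2 intensity, vertical axis), with genes ordered by the difference between the lines. Circles are the 4 SThdh7/7 arrays, squares the 4 SThdh111/111 arrays, short bars the mean of a line and the dashed line the background floor of 7.02. Plagl1, Mest, Dlk1 and Cdkn1c show the widest gaps, and Mest is the only one of these with all SThdh7/7 arrays above the floor.

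Mest, the paternally expressed gene that encodes an enzyme-like protein of the alpha/beta hydrolase fold and is found in mesodermal tissues of the embryo, had the largest change among imprinted genes that were above the floor on every array. It was measured at 8.67, 8.76, 8.57 and 8.68 (log2 intensity, probe set 1423294_at) on the SThdh7/7 arrays and at 13.70, 13.69, 13.69 and 13.59 on the SThdh111/111 arrays. Every SThdh111/111 array lay far above every SThdh7/7 array, with little spread within a line. The means of 8.67 ± 0.08 and 13.67 ± 0.05 (SD, n = 4) amount to a 32.0-fold rise, with an SE of 0.07 on the log2 difference (adjusted p = 1.9e-14). Its neighbour Copg2, a coatomer subunit gene expressed mainly from the maternal copy in the mouse, was at 9.93, 9.53, 9.73 and 9.80 in SThdh7/7 and at 10.27, 10.29, 10.22 and 10.11 in SThdh111/111. Copg2 rose by 0.47 ± 0.10 (SE; adjusted p = 0.0027), a 1.39-fold change, through a probe set that can match several transcripts and is its only one. The Mest gene also holds a microRNA, whose level was not measured here. Its mature arms are shown with the seed, bases 2 to 8, in capitals because the host transcript had so large a change.
mmu-miR-335-5p (chr6:30741314-30741336, plus strand): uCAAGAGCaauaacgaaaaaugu
mmu-miR-335-3p (chr6:30741354-30741375, plus strand): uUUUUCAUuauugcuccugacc

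Plagl1, which encodes a paternally expressed zinc finger factor that slows the cell cycle and is known to regulate other imprinted genes, had the largest fitted difference of the list. Its brightest probe set, 1426208_x_at, was at 5.19, 5.83, 6.53 and 7.04 in SThdh7/7 and at 11.93, 12.07, 11.84 and 11.78 in SThdh111/111. Only 1 SThdh7/7 array was above the floor, so with the others set to it the log2 rise was at least 4.88 (adjusted p = 6.2e-09). A second probe set, 1450533_a_at, was below the floor on all SThdh7/7 arrays and at 7.66 ± 0.32 (SD, n = 4) in SThdh111/111, at least 1.56-fold higher (adjusted p = 2.2e-05). Its SThdh7/7 values of 3.45, 3.69, 2.64 and 2.88 all missed the filter's log2 level of 4. It was thus tested only because of its SThdh111/111 values, and its call is no separate support for the rise. The third, 1438588_at, stood at 7.22, 7.65, 6.94 and 5.24 in SThdh7/7 and at 7.68, 7.13, 7.22 and 7.72 in SThdh111/111, and was not called (adjusted p = 0.36). The probe sets of Plagl1 thus disagreed. Both that rose have names that mark possible matches to several transcripts, and with such probe sets left out Plagl1 was not called (difference 0.67, adjusted p = 0.38).

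In the Peg3 cluster only Peg3, a paternally expressed zinc finger gene, changed. Its brightest probe set, 1433924_at, was at 6.17, 5.86, 6.58 and 6.40 in SThdh7/7 and at 8.78, 8.82, 8.56 and 8.37 in SThdh111/111. Every SThdh7/7 value was below the floor and every SThdh111/111 value above it, a rise of at least 3.06-fold (adjusted p = 9.2e-06). A second Peg3 probe set was at least 1.92-fold higher (adjusted p = 0.00076), the third kept one was below the floor on all arrays and not called, and the other 2 failed the filter. Usp29, a paternally expressed deubiquitinase gene that starts from the same stretch of DNA in the opposite direction, was at 7.43, 6.74, 6.42 and 6.66 in SThdh7/7 and at 6.03, 5.99, 5.25 and 4.12 in SThdh111/111. Its lines did not overlap, but 7 of the 8 values lay below the floor and the difference of -1.46 ± 0.53 (SE) was not called (adjusted p = 0.066). The maternally expressed zinc finger gene Zim1 lay below the floor on all 8 arrays.

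Igf2, its receptor gene Igf2r and the antisense RNA Airn were each called higher at their brightest probe set. Igf2, the paternally expressed fetal growth factor gene, was at 6.94, 6.52, 7.88 and 7.18 (probe set 1448152_at) in SThdh7/7 and at 9.49, 9.93, 9.27 and 9.25 in SThdh111/111. With the 2 SThdh7/7 arrays below the floor set to it, the log2 rise was at least 2.21 (adjusted p = 1.5e-05). The second Igf2 probe set was dim, at 4.19 to 6.99 in SThdh7/7 and 5.36 to 6.87 in SThdh111/111, and was not called (adjusted p = 0.62). Igf2r, the maternally expressed receptor that carries Igf2 to lysosomes for breakdown, was at 10.92, 10.90, 11.05 and 10.68 in SThdh7/7 and at 11.66, 11.50, 11.53 and 11.42 in SThdh111/111. It rose by 0.64 ± 0.09 (SE; adjusted p = 7.7e-05) there and by 0.97 ± 0.10 (SE; adjusted p = 7.3e-06) at its other probe set. Airn, the paternal noncoding RNA that runs antisense across Igf2r and silences it on the paternal chromosome, was at 7.04, 7.14, 6.26 and 6.12 in SThdh7/7 and at 8.08, 8.01, 7.78 and 7.73 in SThdh111/111. The log2 rise of Airn was at least 0.84 (adjusted p = 0.008), with 2 SThdh7/7 arrays set to the floor. Of its other 3 kept probe sets none was called, and the next brightest stood at 1.20 ± 0.42 (SE; adjusted p = 0.058). The mean over its kept probe sets was 0.44 (adjusted p = 0.64).

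Grb10, which encodes an adaptor that damps insulin and IGF receptor signalling and is maternally expressed in most tissues but paternally in neurons, was bright in both lines. It was at 12.66, 12.69, 12.74 and 12.81 in SThdh7/7 and at 13.15, 13.10, 13.08 and 13.19 in SThdh111/111. The rise of 0.40 ± 0.06 (SE; adjusted p = 0.00014) was small beside that of Igf2, and the lines did not overlap. A second probe set rose by 0.23 ± 0.07 (SE; adjusted p = 0.027), and the third stood at 0.27 ± 0.11 (SE; adjusted p = 0.12).

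In the Dlk1-Meg3 cluster, genes known for paternal and for maternal expression were higher in SThdh111/111. Dlk1, the paternally expressed transmembrane relative of Notch ligands that marks progenitor cells and holds back adipocyte formation, was at 7.60, 7.96, 7.06 and 6.31 (probe set 1449939_s_at) in SThdh7/7 and at 11.70, 11.56, 11.46 and 11.47 in SThdh111/111. All 4 SThdh111/111 arrays stood above all 4 of SThdh7/7, of which 1 was below the floor, and the log2 rise was at least 4.14 (adjusted p = 3.6e-08). That probe set can match several transcripts. The other Dlk1 probe set lay below the floor on all 8 arrays and was not called, with a difference of 0.78 ± 0.56 (SE), so Dlk1 had no call with such probe sets left out (adjusted p = 0.44).

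Meg3, the maternal long noncoding RNA of this cluster, had 11 probe sets, of which 5 were called higher, 0 lower and 6 not called. Among the 5, 1436713_s_at stood at 4.47, 2.98, 1.93 and 1.87 in SThdh7/7. It would have failed the filter on these values alone, so its call is no separate support for the rise. The brightest, 1439380_x_at, ran from 8.61 to 9.19 (mean 8.89 ± 0.24, SD, n = 4) in SThdh7/7 and from 9.88 to 10.25 (mean 10.03 ± 0.16, SD, n = 4) in SThdh111/111, a rise of 1.14 ± 0.13 (SE; adjusted p = 2e-05). The probe set 1452905_at was at 7.30, 7.39, 6.87 and 6.97 in SThdh7/7 and at 9.70, 9.16, 9.86 and 9.53 in SThdh111/111 (adjusted p = 4.8e-07). A probe set that was below the floor on all SThdh7/7 arrays, 1452183_a_at, reached 9.64 ± 0.12 (SD, n = 4) in SThdh111/111, at least 6.16-fold higher (adjusted p = 2.5e-07). Those not called included the third and the fifth in brightness, with differences of 0.14 ± 0.24 and -0.46 ± 0.26 (SE), so the Meg3 probe sets disagreed.

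Rian, the next maternal noncoding RNA and host of small nucleolar RNAs, was at 7.35, 7.16, 7.39 and 7.57 in SThdh7/7 and at 9.20, 9.22, 9.14 and 9.06 in SThdh111/111. It rose by 1.79 ± 0.16 (SE; adjusted p = 1.4e-06), and a second of its 4 probe sets rose as well, with a log2 rise of at least 2.17 (adjusted p = 4.1e-05). The other 2 stood at 0.07 ± 0.27 and -0.05 ± 0.92 (SE) and were not called. Mirg, which follows it and hosts microRNAs, was at 7.99, 8.14, 6.67 and 6.95 in SThdh7/7 and at 8.40, 7.81, 7.63 and 7.43 in SThdh111/111, where the lines overlapped (adjusted p = 0.52). Its second probe set was at 7.76, 6.07, 6.62 and 4.56 in SThdh7/7 and at 8.02, 8.71, 8.93 and 7.78 in SThdh111/111. That one was called higher (adjusted p = 0.012), with a log2 rise of at least 1.15. RefSeq places mature microRNAs on the same strand within each of these 3 genes, 19 in Mirg, 6 in Rian and 3 in Meg3, none of which was measured here.

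**Figure D2:**
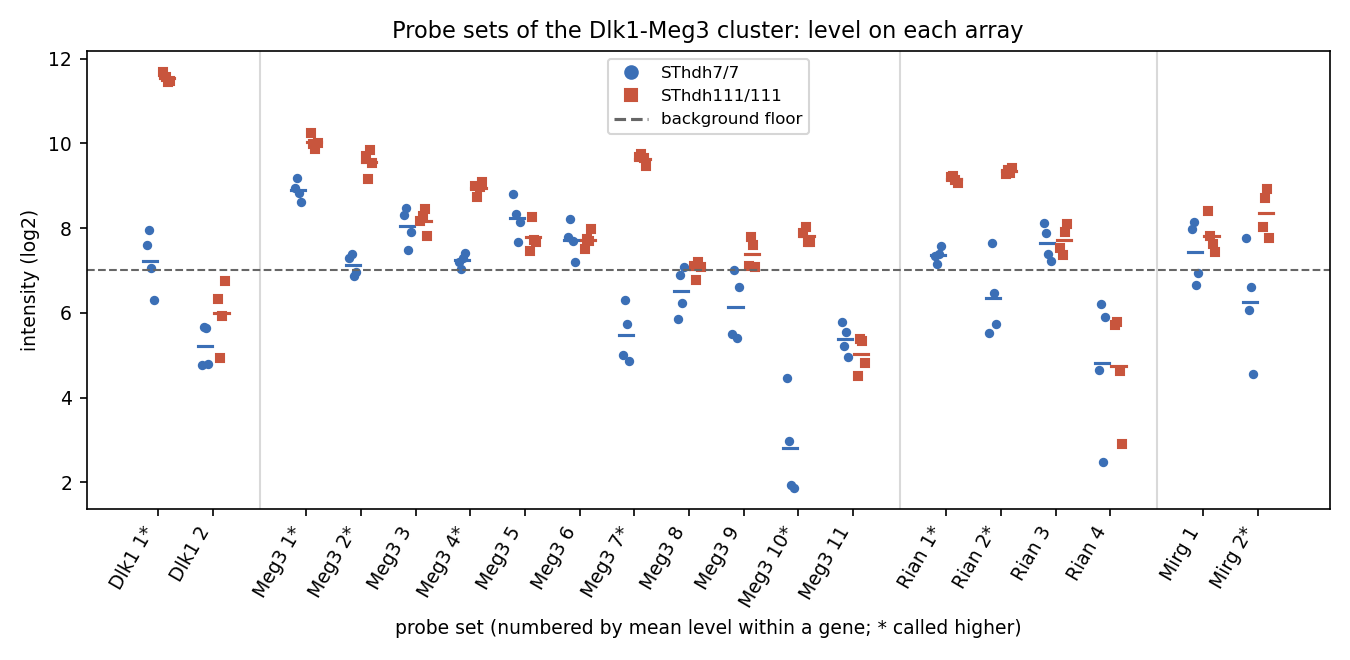
Level on every array (log2 intensity, vertical axis) of all probe sets of Dlk1, Meg3, Rian and Mirg, numbered by mean level within a gene, with an asterisk on those called higher. Circles are SThdh7/7, squares SThdh111/111, short bars the mean of a line and the dashed line the background floor. Of 11 Meg3 probe sets 5 separate the lines with a call and several others overlap.

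The Kcnq1 cluster moved at single genes. Cdkn1c, the maternally expressed inhibitor of cyclin-dependent kinases that lets progenitors leave the cell cycle, was at 6.80, 8.14, 6.78 and 7.37 (probe set 1417649_at) in SThdh7/7 and at 10.37, 10.25, 10.51 and 10.54 in SThdh111/111. Every SThdh111/111 array was above every SThdh7/7 array, and with 2 SThdh7/7 arrays set to the floor the log2 rise was at least 3.03 (adjusted p = 4.7e-07). Cd81, a maternally expressed tetraspanin gene, was among the brightest members at 13.93, 13.86, 14.03 and 13.94 in SThdh7/7 and 14.13, 14.34, 14.17 and 14.35 in SThdh111/111. The difference of 0.30 ± 0.07 (SE; adjusted p = 0.0046) was 0.00 after quantile normalization (adjusted p = 0.98). Tssc4, a maternally expressed gene for a spliceosome assembly protein, was at 9.86, 9.86, 10.03 and 9.82 in SThdh7/7 and at 9.56, 9.68, 9.47 and 9.42 in SThdh111/111. Its log2 difference of -0.36 (adjusted p = 0.014) was a call lost after centring (difference -0.21, adjusted p = 0.39).

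The other 5 genes of this cluster were not called. Kcnq1ot1, the paternal noncoding RNA that silences the cluster on its own chromosome, was at 6.70, 7.53, 7.57 and 7.58 in SThdh7/7 and at 4.65, 7.41, 6.29 and 6.09 in SThdh111/111, with overlapping lines (adjusted p = 0.12). Its second kept probe set lay the other way, at 1.14 ± 0.45 (SE; adjusted p = 0.096). Without SThdh111/111 sample 2 the first was called lower. Slc22a18, a transporter gene, and Osbpl5, a lipid transfer gene, differed by 0.33 ± 0.39 and 0.21 ± 0.14 (SE). Phlda2, which restrains growth of the placenta, was above the floor on 1 of 8 arrays, and Ascl2, a trophoblast transcription factor gene, on none.

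No tested gene of the Prader-Willi/Angelman cluster rose, and Ndn fell. Ndn, a paternally expressed MAGE family gene of postmitotic neurons, had 8 probe sets, all kept, of which 5 were lower and 0 higher. The brightest, 1435382_at, was at 10.10, 10.04, 10.09 and 10.03 in SThdh7/7 and at 9.09, 9.46, 9.16 and 9.29 in SThdh111/111. The lines did not overlap, and Ndn fell by 0.81 on the log2 scale (SE 0.10, adjusted p = 3.7e-05), a 1.76-fold change. The other 4 called probe sets differed by -0.72 to -0.90, and the 3 not called were the dimmest. Ube3a, a ubiquitin ligase gene expressed from the maternal copy in neurons, was at 9.90, 9.96, 10.26 and 10.25 in SThdh7/7 and at 10.01, 10.03, 9.98 and 10.18 in SThdh111/111. The difference of -0.04 ± 0.10 (SE; adjusted p = 0.84) was within the spread of the arrays, and none of the 6 Ube3a probe sets was called. Magel2, another MAGE family gene, differed by -0.11 ± 0.29 (SE; adjusted p = 0.85). Peg12 and the single probe set of Snrpn lay below the floor on all 8 arrays. Another 6 probe sets of Snrpn were shared with a further gene and were not used.

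**Figure D3:**
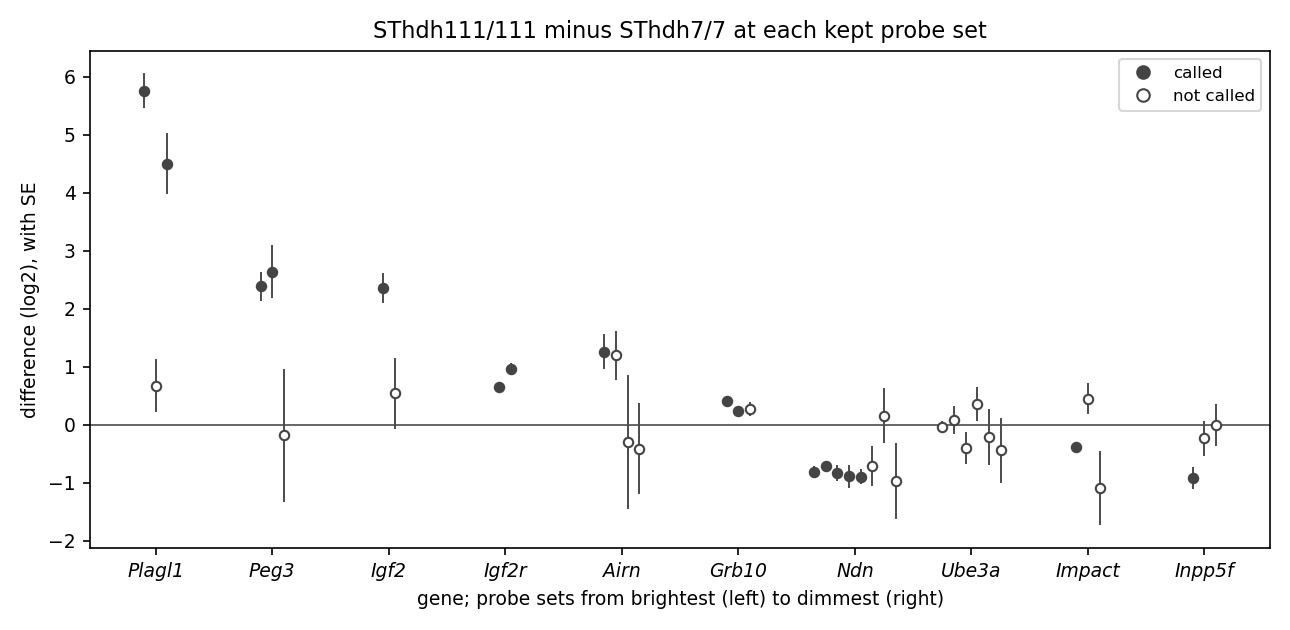
Difference SThdh111/111 minus SThdh7/7 (log2, with SE) at each kept probe set of 10 imprinted genes, from the brightest probe set on the left to the dimmest on the right within a gene. Filled points are called and open points are not. The 5 called probe sets of Ndn lie at -0.72 to -0.90, both of Igf2r lie above 0, and none of Ube3a is called.

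In the Peg10-Sgce cluster the paternally expressed neighbours Peg10 and Sgce differed in level. Sgce, which encodes epsilon-sarcoglycan, was at 10.53, 10.49, 10.52 and 10.45 in SThdh7/7 and at 10.62, 10.62, 10.52 and 10.58 in SThdh111/111, a difference of 0.08 ± 0.07 (SE; adjusted p = 0.47). Peg10, a gene derived from a retrotransposon and needed for the placenta, was at 7.16, 7.11, 6.62 and 6.49 in SThdh7/7 and at 5.30, 5.92, 5.48 and 5.57 in SThdh111/111. It was called lower (adjusted p = 0.041), but only 2 of 8 arrays were above the floor, the difference was -0.06 with values below it set to it, and no fold is given. That call was lost without any 1 of the 8 samples and without SThdh7/7 samples 1 and 2 together (adjusted p = 0.24). The maternally expressed neurabin gene Ppp1r9a was not called, at -0.34 ± 0.21 (SE; adjusted p = 0.31), and Asb4 and Calcr lay below the floor on all 8 arrays.

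Single imprinted loci added 2 falls. Inpp5f, a phosphoinositide phosphatase gene in which a short brain transcript is imprinted, was at 9.94, 9.85, 9.30 and 9.11 in SThdh7/7 and at 8.44, 8.68, 8.96 and 8.47 in SThdh111/111. It fell by 0.91 on the log2 scale (SE 0.19, adjusted p = 0.0028), and its other 2 probe sets were not called. The call was lost with the 3 averaged (difference -0.39, adjusted p = 0.17), and the difference was -0.57 without SThdh7/7 samples 1 and 2 (adjusted p = 0.041). The probe sets were not assigned to the imprinted or the biallelic transcript. Impact, a paternally expressed translation regulator gene, was at 10.54, 10.70, 10.70 and 10.83 in SThdh7/7 and at 10.34, 10.18, 10.27 and 10.45 in SThdh111/111. It fell by 0.38 on the log2 scale (SE 0.09, adjusted p = 0.0058), a call lost after centring (difference -0.23, adjusted p = 0.35), and its other 2 probe sets were not called. Gnas, which encodes the stimulatory G protein alpha subunit from a locus with transcripts of either parental origin, was bright in both lines, at 14.29, 14.24, 14.18 and 14.21 in SThdh7/7 and 14.33, 14.37, 14.35 and 14.27 in SThdh111/111, and was not called (difference 0.10 ± 0.06, SE, adjusted p = 0.25). The Ras exchange factor gene Rasgrf1 was around the floor (adjusted p = 0.53). Nnat, a neuronal proteolipid gene, Nap1l5, a nucleosome assembly gene, and Gatm, a gene of creatine synthesis, lay below it on all 8 arrays.

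**Figure D4:**
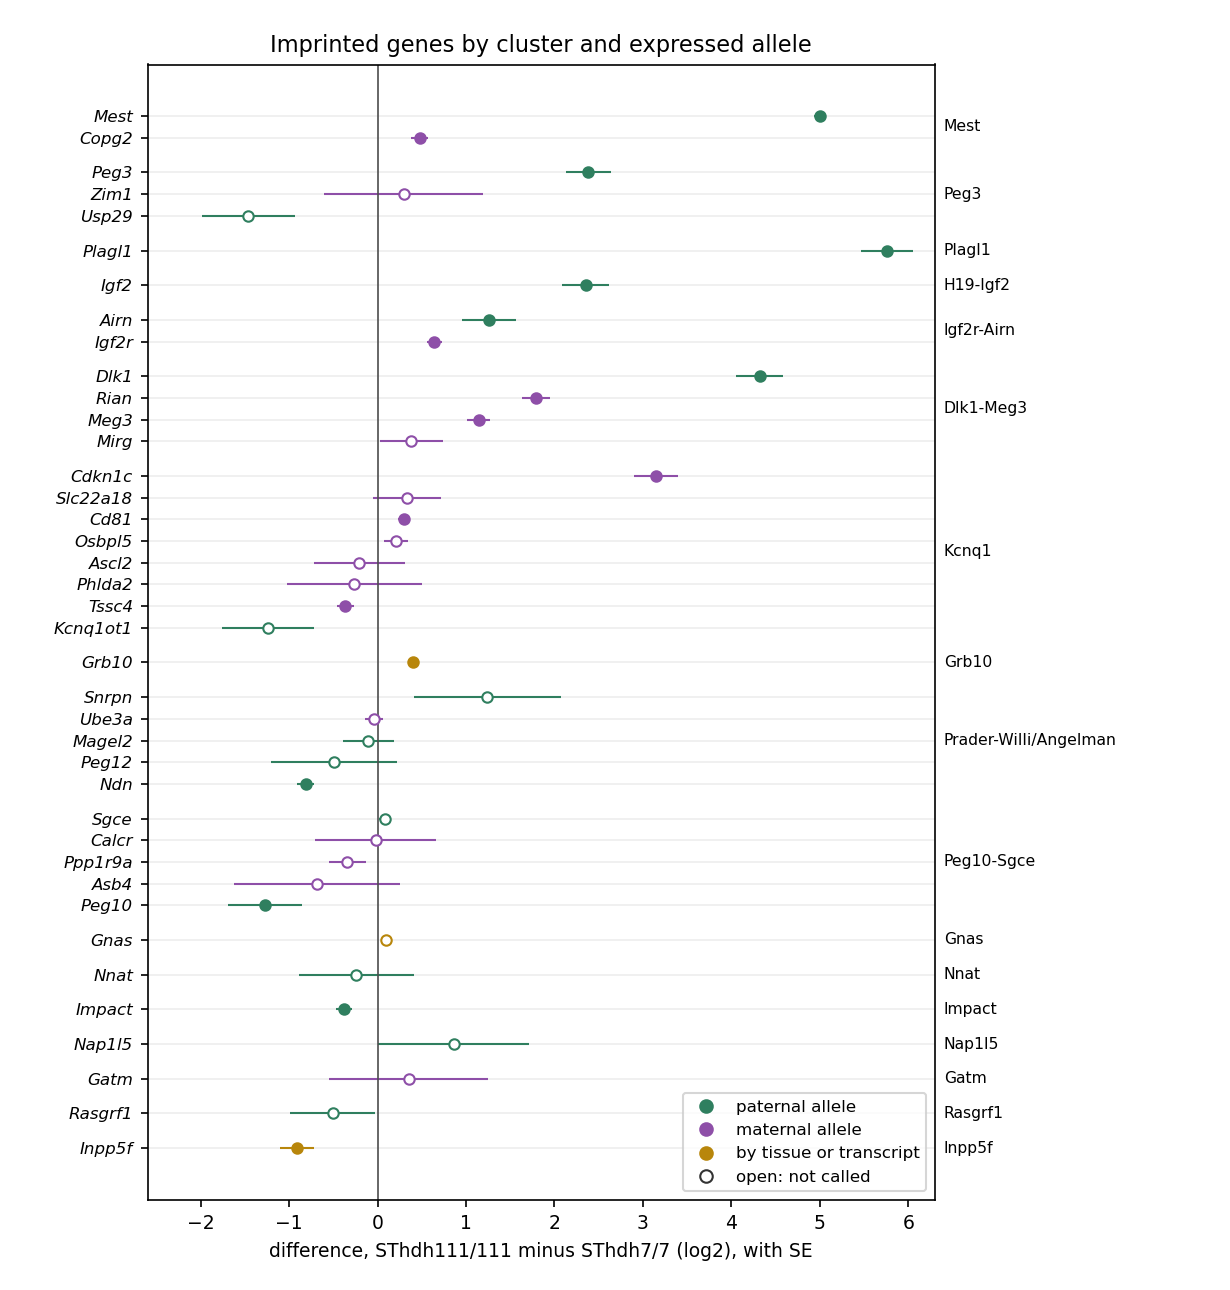
Difference SThdh111/111 minus SThdh7/7 (log2, horizontal axis, with SE) of the brightest probe set of each of the 39 tested imprinted genes, grouped by cluster as named on the right. Colour gives the allele that is known to be expressed, and open points are not called. Both alleles of the Mest, Igf2r-Airn and Dlk1-Meg3 clusters hold filled points to the right of 0.

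By expressed allele, 6 of 18 tested paternal genes rose and 3 fell, with a median difference of -0.01, where 13.1% of all genes rose and 15.9% fell. Of 18 tested maternal genes 6 rose and 1 fell, with a median of 0.30. In 3 clusters both a paternal and a maternal gene were called, those of Mest, Igf2r-Airn and Dlk1-Meg3, and in all 3 every called gene rose. Thus Mest rose with Copg2, Igf2r with Airn, and Dlk1 with Meg3 and Rian. The genes in each set are known for expression from opposite parental copies, but the copy in use was not measured in these lines. Of the 6 long noncoding RNAs in the list, Airn, Meg3 and Rian rose and 0 fell, Kcnq1ot1 and Mirg were not called at their brightest probe sets, and H19 was not analysed here.

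Of 42 other imprinted genes, a list kept apart from the members, 32 were tested, 5 rose and 6 fell, which is near the background shares of 13.1% and 15.9%. The 2 called higher with the lowest adjusted p were decorin (Dcn), a matrix proteoglycan gene imprinted in placenta, at least 162-fold higher (adjusted p = 7.8e-15), and Pon3, a lactonase gene, up by 1.15 ± 0.11 (SE; adjusted p = 3.2e-06). The lowest in the other direction were its neighbour Pon2, with a log2 difference of -1.48 (adjusted p = 9.9e-08), and H13, a signal peptide peptidase gene, with one of -0.52 (adjusted p = 1.2e-05). Dcn is also in the list of mesenchymal markers.

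Of 26 regulators of imprints 25 were tested, 3 rose and 6 fell, beside 13.1% and 15.9% of all genes. Those that fell with the lowest adjusted p were Hells, a chromatin remodeller needed for DNA methylation, with a log2 difference of -1.59 (adjusted p = 5.1e-08), and Ezh2, the polycomb methyltransferase, with one of -1.30 (adjusted p = 1.8e-07). The maintenance methyltransferase gene Dnmt1 and its partner Uhrf1, named after their values were seen, differed by -0.93 and -2.04 (log2; adjusted p = 5e-07 and 1.8e-06), both falls. Zfp445, an imprint-protecting zinc finger gene, and Atrx, a chromatin remodeller gene, rose by 0.31 ± 0.09 and 0.36 ± 0.11 (SE; adjusted p = 0.017 and 0.026), but without SThdh7/7 samples 1 and 2 0 regulators were called higher. Trim28, bright at means of 12.20 in SThdh7/7 and 12.06 in SThdh111/111, was not called. Nor were Zfp57, above the floor on 1 array of each line, and Dnmt3l, above it on none, both too dim to size.

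Of 13 tested genes around IGF signalling 5 rose and 3 fell, beside the same 13.1% and 15.9%. Igf1, the other ligand of this system, fell with the rise of Igf2, with means of 9.92 ± 0.13 in SThdh7/7 and 6.59 ± 0.68 in SThdh111/111 (SD, n = 4; adjusted p = 7.9e-07), with 2 SThdh111/111 arrays below the floor. Among the binding protein genes Igfbp4 rose by 2.63 ± 0.09 and Igfbp5 by 3.02 ± 0.15 (SE; adjusted p = 9.1e-11 and 3.9e-09), while Igfbp3 differed by -3.06 (log2; adjusted p = 1e-09), a fall.

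Cell type markers, those of neural progenitors and of the striatum included, were measured beside the members. Beside each list stand the 13.1% of all genes called higher and the 15.9% called lower. Of 8 mesenchymal markers 6 were higher and 0 lower, and their summed intensity was 26496 to 28242 in SThdh7/7 and 98760 to 114211 in SThdh111/111. Of 7 neural progenitor markers 1 was higher and 3 lower, with sums of 48737 to 54606 and 46683 to 50789, sums in which the intermediate filament gene Vim was the brightest marker. The progenitor markers that were lower are Pax6, at least 6.96-fold, and Sox2 and Nes, with log2 differences of -2.06 and -1.38. Slc1a3 of the same list rose by 1.82 ± 0.27 (SE; adjusted p = 0.00018), and Vim, Hes5 and Fabp7 were not called, the last 2 of them below the floor on all 8 arrays. Of 7 neuronal markers 1 was lower and 0 higher, and Tubb3, Snap25 and Gad1 were below the floor on all 8 arrays. Of 8 striatal markers 7 had a probe set, 2 of 6 tested were higher and 0 lower. None of 4 tested trophoblast markers and none of 4 endothelial ones was called, and 1 of 5 microglial markers, Csf1r, was higher. The part of these shifts in the differences of imprinted genes was not tested.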

How the data were processed

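Arrays of 8 samples, 4 per line, were used. The deposited values are 1 linear intensity per probe set, and each array has the same 2% trimmed mean of 500. Per the submitters' processing notes GCRMA was used, with no version given, but the values have the form of single-array scaled signals, so the method behind these intensities is not settled. Their log2 was taken with no further normalization. Genes came from the platform's table, updated to RefSeq symbols of GRCm38.p6: 34945 of 45037 probe sets named 1 gene, 932 several and 9160 none, and the last 2 kinds were not named. Probe sets with a log2 of at least 4 on at least 4 arrays were kept (41409) and fitted with limma 3.58.1 in R 4.3.3 (lmFit, eBayes with an intensity trend), with Benjamini-Hochberg adjustment over all kept. The floor is an intensity of 130, from 27 bacterial control probe sets. A probe set below it on all arrays of a line is given as at least N-fold, and values below it were otherwise set to it for a bound. The procedure was tested on simulated data.

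Members and lists were chosen with earlier results of these data known. Values on every array were given for members with a called probe set and for some others chosen after their values were seen, and from other lists the 2 risers and 2 fallers with the smallest adjusted p were named. Alternatives were other filters, centring, quantile normalization, other variance models, averaging the probe sets of a gene, no probe sets that can match several transcripts, a replicate block, and samples left out. Promoter and microRNA sequences are RefSeq's. The number of arrays limits the precision.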

Additional observations from a re-analysis of the deposited data

Results flagged for a closer look

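Among 66 groups of 4 arrays, 2 held an array far from the other 3. Chance flags about 1 group in 20, so 2 of 66 is no more than chance gives. Mest on SThdh111/111 sample 4 was at 13.59 (log2 intensity) and on the other SThdh111/111 arrays at 13.69 to 13.70. Htt on SThdh111/111 sample 4 was at 8.26 and on the others at 8.81 to 8.90.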

How the results depend on the processing

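No difference of the 18 called imprinted genes changed sign under any alternative tried, and 8 of the 18 kept their call under all of them (Mest, Peg3, Igf2, Igf2r, Meg3, Rian, Cdkn1c and Ndn). The count of genes called lower went from 5 to 2 after centring, and to 3 when probe sets of a gene were averaged, with no intensity trend, and without probe sets that can match several transcripts. The last of these also left 12 probe sets higher and 4 lower of 67 tested, and removed the calls of Plagl1, Dlk1 and Peg10, with no probe set of another kind left for Copg2, Grb10 and Tssc4. Centring changed the split of all kept probe sets from 9.87% higher and 12.6% lower to 10.3% and 6.71%. Without 1 sample at a time, 13 genes were higher, 4 to 5 lower, 22 to 26 probe sets higher and 8 to 10 lower, and the median difference was 0.08 to 0.30. Without SThdh7/7 samples 1 and 2, a choice made for the regulators after seeing the data, 0 of 25 regulators of imprints were higher, from 3. Htt was called lower with a filter at a log2 of 8 (difference -0.42, limma adjusted p = 0.046) and through another probe set without those that can match several transcripts (difference -1.09, adjusted p = 0.024). Sample numbers did not pair the samples: deviations of same-numbered samples correlated at -0.0144 to 0.00903. With the replicate block 13 genes were higher and 4 lower, and 22 probe sets higher and 8 lower, with Peg10 lost (adjusted p = 0.086). Signals near the floor limit how far falls and dim genes can be sized.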
